A study of Homo sapiens with 28 samples.

Results

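The loci described here are those of 6 AP-1 and immediate early genes, JUN, FOS, FOSL1, JUNB, JUND and DUSP1, in chromatin of GP5d cells, an established human colon adenocarcinoma line. Members were all deposited chromatin immunoprecipitation sequencing (ChIP-seq) peaks that overlapped the 50 kb on either side of a rounded position near each gene's start on the hg18 build. These positions were 59022000 on chromosome 1 for JUN, 74815000 on chromosome 14 for FOS, 65424000 on chromosome 11 for FOSL1, 12763000 on chromosome 19 for JUNB, 18253000 on chromosome 19 for JUND and 172131000 on chromosome 5 for DUSP1. The rule found 406 peaks of the 393268 in all 22 lists, 210 of 235159 in the control lists and 196 of 158109 in the RAD21 siRNA lists.

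The series examined where transcription factors bind relative to cohesin in GP5d cells given a non-targeting siRNA or an siRNA to the cohesin subunit RAD21. Both groups received 50 nM siRNA and were taken after 72 h. Each of 11 targets (RAD21, SMC3, NIPBL, CTCF, H3K4me1, MYC, JUND, HNF4A, KLF5, REST and RFX2) had 1 list per siRNA, so no difference between the siRNAs has a replicate check, no test was made, and each interval below covers counting error only. Groups were read from the sample titles, because a separate label of the siRNA names other numbers than RAD21 for every RAD21 siRNA library but that of CTCF. The libraries called H3K4me1 carry in their labels an antibody number known for general histone H3, and those of MYC one known for a mouse antibody where the title says rabbit, so the antibodies behind these 2 targets are not settled.

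AP-1 is a dimer of a JUN family protein (JUN, JUNB, JUND) with a FOS family protein (FOS, FOSL1) or another JUN protein, and it binds a short palindrome, searched here as TGANTCA, or, with related partners, the cyclic AMP response element. JUN, FOS and JUNB are immediate early genes, whose transcription starts within minutes of a growth factor or stress signal without new protein synthesis. FOSL1 is a later, AP-1-driven member, JUND is made more evenly in resting cells, and DUSP1 encodes a phosphatase that switches off the MAP kinases which drive these genes. In colon epithelium this pathway responds to growth factor and inflammatory signals. RAD21 and SMC3 form the cohesin ring, NIPBL loads it, CTCF marks sites where it halts, MYC is a growth regulator, and H3K4me1 marks enhancers and promoter flanks.

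The promoters are shown because JUND and NIPBL had peaks within 1 kb of the positions under RAD21 siRNA only. Each line gives the 250 bases before the RefSeq gene start on GRCh38.p14, 5′ to 3′ on the gene's strand, for 5 of the 6 genes. JUN lies at chr1:58784048-58784297 on the minus strand, JUNB at chr19:12791236-12791485 on the plus strand, JUND at chr19:18281623-18281872 on the minus strand, DUSP1 at chr5:172771196-172771445 on the minus strand and FOS at chr14:75278578-75278827 on the plus strand. Capitals mark matches to the AP-1 sequence TGANTCA, the cyclic AMP response element TGACGTCA, a looser form of it (TGACNTCA, which includes the former), the E-box CACGTG bound by MYC with MAX, and the CArG box bound by serum response factor.
JUN: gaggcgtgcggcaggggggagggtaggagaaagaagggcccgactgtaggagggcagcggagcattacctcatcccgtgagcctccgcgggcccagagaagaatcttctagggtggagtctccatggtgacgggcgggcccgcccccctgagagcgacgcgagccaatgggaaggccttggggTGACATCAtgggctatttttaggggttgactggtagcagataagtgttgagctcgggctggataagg
JUNB: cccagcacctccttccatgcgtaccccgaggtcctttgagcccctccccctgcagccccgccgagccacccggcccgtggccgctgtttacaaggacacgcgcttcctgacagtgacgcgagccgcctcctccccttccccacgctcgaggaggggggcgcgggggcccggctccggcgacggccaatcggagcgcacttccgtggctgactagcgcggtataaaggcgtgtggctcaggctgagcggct
JUND: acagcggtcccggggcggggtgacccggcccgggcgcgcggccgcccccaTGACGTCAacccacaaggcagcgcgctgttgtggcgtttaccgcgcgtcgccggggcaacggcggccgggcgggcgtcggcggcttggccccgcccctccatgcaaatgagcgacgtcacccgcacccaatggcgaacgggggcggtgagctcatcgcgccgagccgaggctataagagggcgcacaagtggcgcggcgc
DUSP1: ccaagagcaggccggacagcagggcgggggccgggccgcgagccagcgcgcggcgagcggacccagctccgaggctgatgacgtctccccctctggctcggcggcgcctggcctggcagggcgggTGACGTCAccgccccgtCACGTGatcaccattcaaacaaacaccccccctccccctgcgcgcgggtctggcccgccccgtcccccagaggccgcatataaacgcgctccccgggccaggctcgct
FOS: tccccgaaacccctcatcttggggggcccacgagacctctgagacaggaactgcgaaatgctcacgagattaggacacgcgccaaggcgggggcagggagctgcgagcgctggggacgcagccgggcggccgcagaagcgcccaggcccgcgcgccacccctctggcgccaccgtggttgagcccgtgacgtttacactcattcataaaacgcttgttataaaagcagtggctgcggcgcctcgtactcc

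The motifs were searched on both strands of these bases and the 50 after the start, and shares of all 27305 RefSeq promoters of that length are given beside them. The perfect cyclic AMP response element stood in the promoters of JUND and DUSP1, 200 and 125 bases before the start, and in 1.98% of all promoters. JUN held the variant TGACATCA 67 bases before its start, and 7.97% of all promoters held TGACNTCA. That looser search was added after the JUN sequence was seen. DUSP1 also held the E-box CACGTG, 108 bases before its start, as did 7.43% of all promoters. TGANTCA (7.76% of all promoters) and the CArG box (1.29%) were in none of the 5 windows. Bases further upstream were not searched, so this does not show that the genes lack these motifs. The GC box GGGCGG, at 44.6% of all promoters, was in those of JUN, FOS, JUND and DUSP1, and CCAAT, at 35.7%, in those of JUN, JUNB and JUND. GC content of the windows was 62.0% at JUN, 64.7% at FOS, 71.0% at JUNB, 77.0% at JUND and 73.3% at DUSP1, against a median of 58.3% over all promoters. A match describes letters only and was not tied to any peak.

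Libraries differed in depth in ways that touch every count below. The control libraries held 3629966 to 19926326 tags after filtering and the RAD21 siRNA libraries 1747770 to 15263937. JUND had 2.02 times as many tags under RAD21 siRNA as under control siRNA. MYC had 1.02 times as many, and the other targets between 0.346 (CTCF) and 0.619 (REST) times as many. The rabbit IgG library that served as background for JUND, MYC, NIPBL, RAD21, SMC3 and H3K4me1 held 0.460 times as many tags under RAD21 siRNA. Depth, background and siRNA cannot be told apart in these lists, and a missing peak means only that the region did not pass the caller's p cutoff of 1e-05 in that library.

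All 22 lists had more peaks per 100 kb at the 6 loci than over the genome, from 2.41 times as many for RAD21 under control siRNA to 15.8 times as many for RFX2 under RAD21 siRNA. Other gene-dense regions were not measured for comparison. The JUN locus held 37 peaks with the control siRNA and 28 with the RAD21 siRNA, FOS 36 and 24, and DUSP1 15 and 12. At FOSL1 there were 31 and 33, at JUND 49 and 42, and at JUNB 42 and 57. JUNB and FOSL1 were thus the loci with more peaks under RAD21 siRNA.

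**Figure D1:**
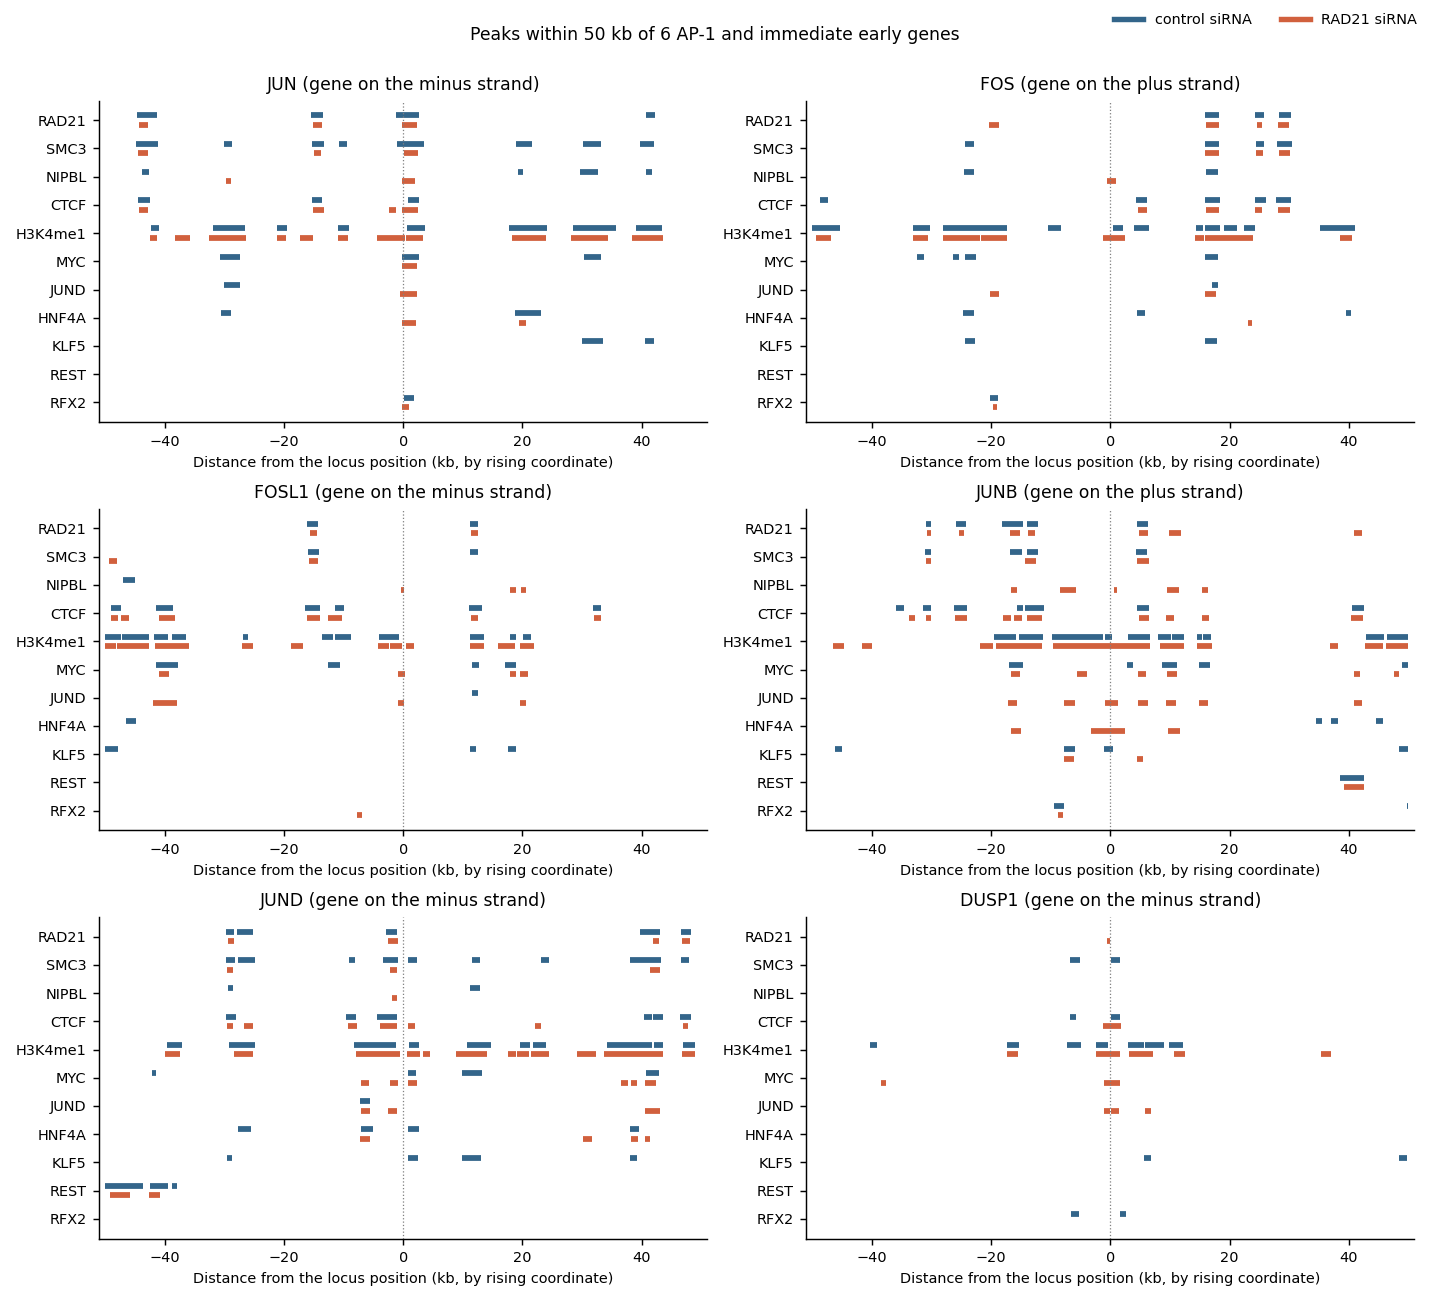
Peaks of the 11 targets (rows) at each of the 6 loci, by distance from the locus position in kb. Each bar spans a peak, blue for control siRNA and orange for RAD21 siRNA, and the dotted line marks the position. The JUND row holds 0 bars at JUNB and DUSP1 under control siRNA and 7 and 3 under RAD21 siRNA.

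The whole JUND list went from 4678 peaks under control siRNA to 12319 under RAD21 siRNA. JUND protein, the AP-1 subunit that was immunoprecipitated, had 4 control peaks at the 6 loci and 19 under RAD21 siRNA. By locus these were 1 and 1 at JUN, 1 and 2 at FOS, 1 and 3 at FOSL1, 0 and 7 at JUNB, 1 and 3 at the JUND gene itself, and 0 and 3 at DUSP1. Of the 19 peaks, 17 had no overlapping control peak (89.5%, 95% Clopper-Pearson interval 66.9 to 98.7), close to the 86.7% over the whole JUND list. The members' share was thus near that background and is no result about these loci. Of the 4 control peaks, 2 were found again, against 35.1% of the list and 54.3% of list peaks at or above the members' median score.

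Some of the JUND peaks lay at gene starts. Under control siRNA no JUND peak came within 1 kb of any of the 6 positions, and under RAD21 siRNA there was one at 5 of them, all but FOS. The JUN start had the strongest, with 141 tags, a score of 164 and a fold of 5.55 over the IgG background, at rank 1914 of 12319 in its list. The score is 10 times the negative log10 of p, as the authors' peak caller gave it, and 50 is its lowest value in these lists. At the JUNB start the peak had 69 tags and a score of 131, with its summit 16 bp from the position. The JUND start had 42 tags and a score of 122, and its summit lay 1.22 kb downstream. DUSP1 had a pair of peaks, 1 with 34 tags, a score of 115 and a fold of 12.7, and 1 with 42 tags and a score of 53.2. The FOSL1 start was the weakest of the 5 by its best peak, at 26 tags and a score of 69.0. All 6 of these peaks carried a false discovery rate (FDR) of 6.19%, and none was under 5%. The whole JUND list was 2.63 times as long under RAD21 siRNA, with 2.02 times as many tags. JUND peaks at the starts of other genes were not counted, so whether these starts differ from them was not tested.

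Away from the starts, the JUND peak with the highest score at any of the 6 loci lay 41.4 kb upstream of the JUND gene, with 79 tags, a score of 252 and an FDR of 4.50% under RAD21 siRNA. It had no control counterpart. Of the 5 starts, 4 had JUND among equal numbers of the strongest peaks of both lists, and 0 at an FDR under 5%. FOSL1 had its best JUND peak 38.9 kb downstream under RAD21 siRNA, with 138 tags and a score of 104. JUNB had 6 further peaks under RAD21 siRNA, between 16.3 kb upstream and 41.6 kb downstream, with scores from 59.5 to 128. At FOS the best JUND peak lay 16.1 kb downstream with 73 tags and a score of 139. It overlapped in part a control peak of 17 tags and a score of 55.5, whose summit lay 17.5 kb downstream. The JUND gene had the other overlapping pair, 6.26 kb downstream, with 43 tags and a score of 101 under control siRNA. Under RAD21 siRNA it had 41 tags and a score of 158. The strongest control peak of JUND, 29.4 kb downstream of JUN with 55 tags and a score of 159, and the control peak 11.8 kb upstream of FOSL1 with 17 tags were not found again. In normalised tags, counted per 1000000 tags of the library, the FOS pair was at 2.25 and 4.78, and the JUND pair at 5.69 and 2.69. These 2 pairs went opposite ways, but the FOS values come from peaks with summits apart. All 4 control JUND peaks had an FDR of 9.19% or more, and 18 of the 19 RAD21 siRNA peaks were at 6.19%. In the whole JUND lists, 0 of 4678 control peaks and 718 of 12319 RAD21 siRNA peaks were under 5%.

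Other proteins were often present where JUND was. Of the 19 JUND peaks under RAD21 siRNA, 13 overlapped a MYC peak of the same siRNA (68.4%, against 36.0% of the whole JUND list), 10 a RAD21 peak (52.6% against 21.4%), 11 a CTCF peak (57.9% against 26.3%) and 9 a NIPBL peak (47.4% against 30.7%). H3K4me1 overlapped 18 of them (94.7% against 87.5%). With the control lists, 7 of the 19 overlapped MYC (36.8% against 40.5%), 6 RAD21 (31.6% against 22.2%), 8 CTCF (42.1% against 24.6%), 7 SMC3 (36.8% against 27.0%), 17 H3K4me1 (89.5% against 79.4%) and 1 NIPBL (5.26% against 25.4%). SMC3 under RAD21 siRNA overlapped 5 (26.3% against 14.0%). The members are few and share loci, and these shares were not tested.

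**Figure D2:**
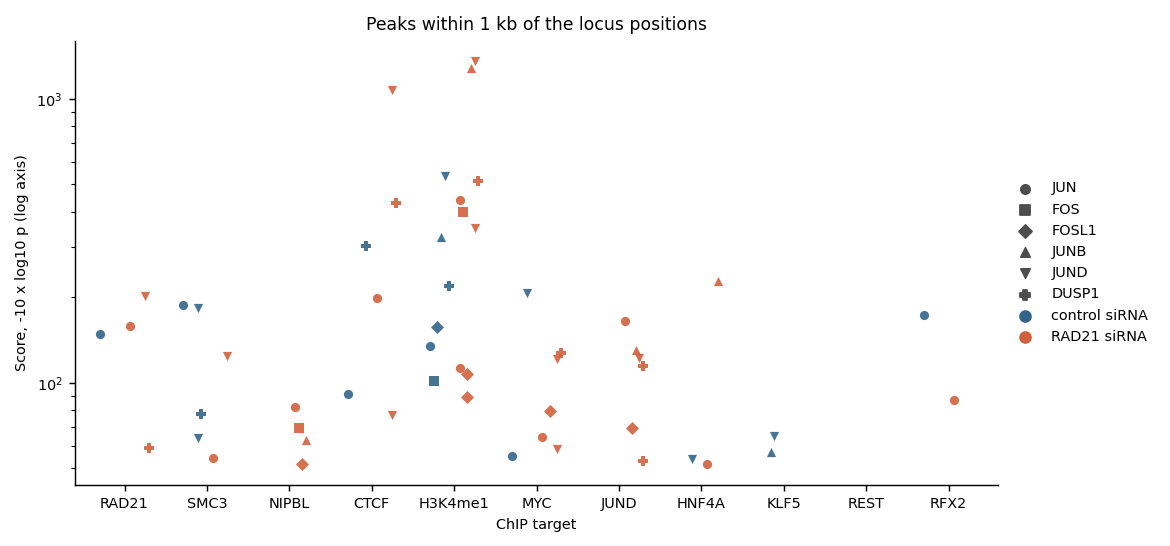
Score of each peak within 1 kb of a locus position (log axis), by target, with the locus as the symbol and the siRNA as the colour. JUND and NIPBL have symbols under RAD21 siRNA only, at 5 and 4 of the 6 loci, and H3K4me1 has them at 6 loci under both.

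MYC had 20 control peaks and 19 under RAD21 siRNA, while its whole list went from 13589 to 7264. At the loci the places differed more than the number. Of the 20 control peaks, 7 were found again (35.0%, interval 15.4 to 59.2), against 28.9% of its list and 37.3% of list peaks at or above the members' median score. Of the 19, 12 had no control peak (63.2%, interval 38.4 to 83.7), against 45.1%. Counts by locus were 3 and 1 at JUN, 4 and 0 at FOS, 4 and 4 at FOSL1, 5 and 6 at JUNB, 4 and 6 at JUND, and 0 and 2 at DUSP1. None of the 4 control peaks at FOS was found again, and DUSP1, which had none under control siRNA, was the locus with MYC under RAD21 siRNA only.

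At the starts, MYC was present at JUN and JUND under both siRNAs and also at FOSL1 and DUSP1 under RAD21 siRNA. MYC peaks at the starts of other genes were not counted. The JUN start had 145 tags with a fold of 3.55 under control siRNA and 80 tags with a fold of 3.89 under RAD21 siRNA, with scores of 55.2 and 64.7. At the JUND start 80 tags (score 207) lay 1.68 kb upstream under control siRNA and 40 tags (score 58.6) at 1.78 kb upstream under RAD21 siRNA. A further MYC peak 1.55 kb downstream, with 30 tags and a score of 121, was there under RAD21 siRNA. DUSP1 had 49 tags, a score of 127 and a fold of 13.2, and FOSL1 23 tags and a score of 79.4. The 7 pairs of overlapping MYC peaks all held fewer normalised tags under RAD21 siRNA, with a median ratio of 0.496, close to the 0.465 over all 3930 pairs of the list. All 20 control MYC peaks had an FDR under 5%, and none of the 19 under RAD21 siRNA did, with 16 of them at 23.1%. In the whole MYC lists, 13589 of 13589 control peaks and 936 of 7264 RAD21 siRNA peaks were under 5%. By FDR, the members were thus on the same side of 5% as most peaks of their list.

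Among the strongest MYC peaks by locus, JUN had one 31.3 kb upstream under control siRNA (135 tags, score 260) that was not found again. FOS had 65 tags and a score of 149 at 17.6 kb downstream under control siRNA, also without a counterpart. JUNB had 138 tags and a score of 221 at 15.9 kb upstream under control siRNA and 36 tags and a score of 102 there under RAD21 siRNA. FOSL1 had 132 tags (score 140) and 53 tags (score 95.4) about 40.0 kb downstream. At JUND, the best under RAD21 siRNA had 39 tags and a score of 140 at 41.6 kb upstream, where the control peak had 77 tags and a score of 71.5.

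NIPBL, the cohesin loader, had 10 control peaks and 12 under RAD21 siRNA, and none of them overlapped. Its whole list went from 11694 to 6068. The 0 of 10 control peaks found again (interval 0 to 30.8%) stand beside 17.4% of its list and 22.7% of list peaks at or above the members' median score. With windows of 100 kb on either side 6 of 23 were found again (26.1%), so the 0 held for the nearer peaks. The 12 of 12 without a control peak (interval 73.5 to 100%) stand beside 66.3%. Under control siRNA NIPBL was at none of the 6 starts, and under RAD21 siRNA it was at those of JUN, FOS, FOSL1 and JUNB. The FOS summit lay 2 bp from the position, with 39 tags, a score of 69.2 and a fold of 8.49. The JUN start had 61 tags and a score of 82.1, JUNB 13 tags (exact Poisson interval 6.92 to 22.2) and a score of 62.9, and FOSL1 10 tags (interval 4.80 to 18.4) and a score of 51.6. These 4 had FDR values from 15.9% to 28.0%. NIPBL peaks at the starts of other genes were not counted.

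The control NIPBL peaks lay at distal sites. At JUN there were 5, of which the highest score was 78.3 at 41.5 kb upstream. FOS had 2, with 113 tags (score 98.3) at 23.9 kb upstream and 108 tags (score 185) at 17.7 kb downstream. JUND had 2 and FOSL1 had 1, with scores between 59.8 and 80.7. Under RAD21 siRNA JUNB held 5 of the 12, the strongest 10.5 kb downstream with 49 tags, a score of 144 and an FDR of 0.850%. Another JUNB peak 15.7 kb downstream had 28 tags and an FDR of 2.30%, and these 2 were the only NIPBL peaks of the 22 with an FDR under 5%. In the whole NIPBL lists, 0 of 11694 control peaks and 1441 of 6068 RAD21 siRNA peaks were under 5%. DUSP1 had no NIPBL peak in either list.

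Cohesin itself was recorded by RAD21 and SMC3. RAD21 had 19 peaks at the loci under control siRNA and 21 under RAD21 siRNA, while its whole list went from 36204 to 19752. Of the 19, 17 were found again (89.5%, interval 66.9 to 98.7), against 46.6% of the list. The members were strong ones, with a median score of 340 against 202 for the list, and 86.1% of the list's peaks at or above that score were found again. Set against peaks of like score, the members' share was thus near that of the list. SMC3 had 30 peaks and 14, while its whole list went from 38799 to 12548. Of the 30, 14 were found again (46.7%, interval 28.3 to 65.7) against 28.4% of the list. Of list peaks at or above the members' median score of 149, 47.0% were found again.

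Counts of RAD21 peaks were 4 and 3 at JUN, 3 and 4 at FOS, 2 and 2 at FOSL1, 5 and 7 at JUNB, 5 and 4 at JUND, and 0 and 1 at DUSP1. Counts of SMC3 were 8 and 3 at JUN, 4 and 3 at FOS, 2 and 2 at FOSL1, 4 and 3 at JUNB, 10 and 3 at JUND, and 2 and 0 at DUSP1. No locus had more SMC3 peaks under RAD21 siRNA. The 2 subunits differed in number at FOS, JUNB and DUSP1, where RAD21 had more peaks under RAD21 siRNA and SMC3 fewer.

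The strongest cohesin site of all 6 loci lay 17.6 kb downstream of FOS. RAD21 had 375 tags there under control siRNA (25.5 normalised) and 111 under RAD21 siRNA (12.3 normalised), with scores of 2575 and 455. SMC3 had 442 tags (25.8 normalised) and 83 (9.12 normalised), with scores of 3053 and 224. At JUN the strongest site lay 43.6 kb downstream, where RAD21 had 234 and 60 tags and SMC3 287 and 50. JUND had one 29.2 kb downstream with 192 and 60 RAD21 tags, JUNB one 5.51 kb downstream with 279 and 82, and FOSL1 one 15.1 kb downstream with 167 and 41. Every one of these peaks was called under both siRNAs.

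All 17 RAD21 pairs and all 14 SMC3 pairs held fewer normalised tags under RAD21 siRNA. The median ratio was 0.481 for RAD21 (range 0.247 to 0.669) and 0.392 for SMC3 (range 0.267 to 0.578), against 0.490 and 0.378 over all pairs of the lists, of which 98.3% and 98.9% were below 1. The peaks were also shorter, with median length ratios of 0.732 and 0.742, and a shorter peak counts tags over fewer bases. At the JUN start RAD21 had 246 and 82 tags (16.7 and 9.06 normalised, ratio 0.542). SMC3 had 316 and 52 tags there (18.4 and 5.71 normalised, ratio 0.310). The RAD21 score at that start was 148 and 159, while 14 of the 17 RAD21 pairs had a lower score under RAD21 siRNA. DUSP1 had an SMC3 peak at its start under control siRNA (94 tags, score 77.8) and a RAD21 peak under RAD21 siRNA (14 tags, score 58.8), and the 2 did not overlap in place. The JUND start had an SMC3 peak on either side under control siRNA, with scores of 183 and 63.6, and 1 under RAD21 siRNA. RAD21 there had 42 tags and a score of 203 under RAD21 siRNA. Its control counterpart, with 127 tags and a score of 339, ended just beyond 1 kb from the position.

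**Figure D3:**
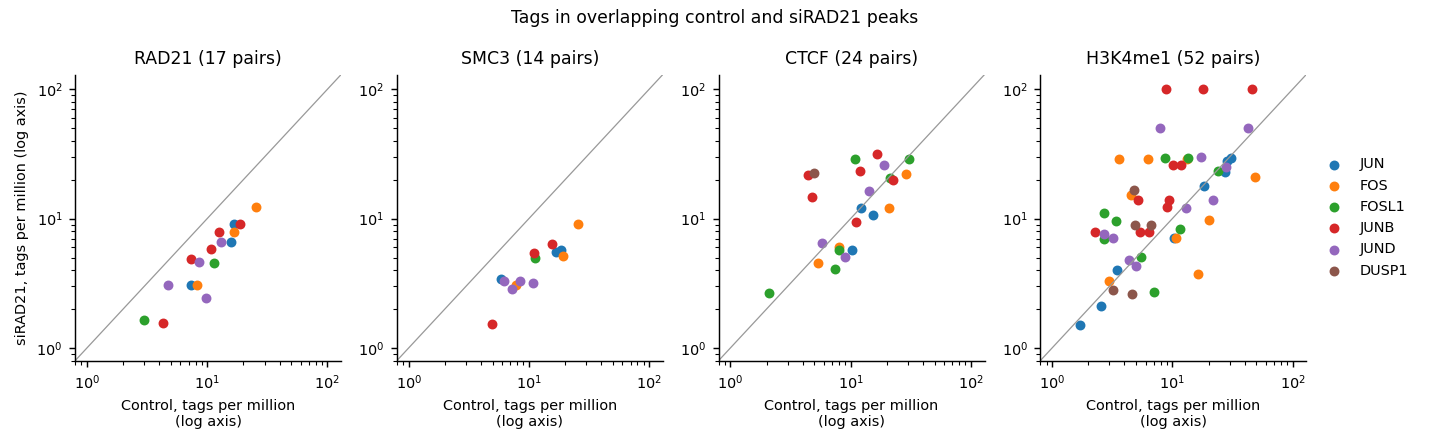
Tags per 1000000 tags of the library in each control peak and in the RAD21 siRNA peak that overlaps it, on log axes, for RAD21, SMC3, CTCF and H3K4me1, coloured by locus. The line marks equal values: all 17 RAD21 and 14 SMC3 pairs lie under it, and CTCF and H3K4me1 pairs lie on both sides.

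CTCF had 29 peaks and 34, while its whole list went from 44027 to 32196. Of the 29, 24 were found again (82.8%, interval 64.2 to 94.2) against 63.1% of the list. Of list peaks at or above the members' median score, 94.2% were found again. Normalised tags in the 24 pairs had a median ratio of 0.956, from 0.546 to 4.96, and 14 were below 1, while the median over the list was 0.770 with 74.2% below 1. At the JUN start CTCF had 146 tags and 50 (12.1 and 12.0 normalised) with folds of 5.52 and 17.2. The DUSP1 start had 60 tags and 94, or 4.99 and 22.6 normalised tags. The JUND start had CTCF peaks under RAD21 siRNA only by the 1 kb rule, the larger with 109 tags and a score of 1071. Its control counterpart, with 226 tags and a score of 1369, ended just beyond that distance.

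Summits of the 10 targets other than H3K4me1 were joined into sites where they lay within 500 bp, which gave 96 sites at the 6 loci. Of these, 42 had peaks under both siRNAs, 31 under control siRNA only and 23 under RAD21 siRNA only, and 76 lay in an H3K4me1 peak of either library. Only 36 held 3 or more targets when those of both siRNAs were counted together. Under control siRNA, 16 sites held CTCF, RAD21 and SMC3 together. Under RAD21 siRNA RAD21 was still called at all 16, CTCF at 15, SMC3 at 13 and all of them at 12. Sites were not joined over the rest of the genome, so these counts have no background share. Whether the loci differ from other sites was not tested.

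The site with the most targets was the JUN start, with 5 of them under control siRNA (RAD21, SMC3, CTCF, MYC, RFX2) and 8 under RAD21 siRNA, when NIPBL, JUND and HNF4A were added. Folds there were low for the number of tags: SMC3 had 316 tags at a fold of 6.38 under control siRNA, while its 287 tags 43.6 kb downstream had a fold of 72.0. The folds are taken over the IgG library, and its part in the JUN start was not tested.

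At FOS the distal sites went both ways. The site 17.6 kb downstream held RAD21, SMC3, NIPBL, CTCF, MYC and JUND under control siRNA, and RAD21, SMC3 and CTCF under RAD21 siRNA. The JUND peak of the second library there had its summit 16.1 kb downstream and was counted as a site of its own. A site 23.8 kb upstream held SMC3, NIPBL, MYC, HNF4A and KLF5 under control siRNA and none of the 10 targets under RAD21 siRNA, though H3K4me1 was called there in both. A site 19.5 kb upstream held RFX2 under control siRNA and RAD21, JUND and RFX2 under RAD21 siRNA, and those 25.1 and 29.3 kb downstream held RAD21, SMC3 and CTCF in both. FOSL1 had 2 sites under control siRNA only and 5 under RAD21 siRNA only. Its site 11.8 kb upstream went from RAD21, SMC3, CTCF, MYC, JUND and KLF5 to RAD21 and CTCF. Sites 0.219 kb downstream and 20.2 kb upstream held none of the 10 targets under control siRNA and NIPBL, MYC and JUND under RAD21 siRNA. At JUN the sites next in number of targets had fewer under RAD21 siRNA: that 43.6 kb downstream lacked NIPBL, that 29.4 kb downstream went from SMC3, JUND and HNF4A to NIPBL, and that 41.4 kb upstream, with RAD21, SMC3, NIPBL and KLF5, had none.

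JUNB had more targets per site under RAD21 siRNA. The site 15.8 kb upstream went from RAD21, SMC3, CTCF and MYC to RAD21, NIPBL, CTCF, MYC, JUND and HNF4A. One 5.28 kb downstream went from RAD21, SMC3 and CTCF to those 3 with MYC, JUND and KLF5. One 10.6 kb downstream held MYC under control siRNA and 6 targets (RAD21, NIPBL, CTCF, MYC, JUND, HNF4A) under RAD21 siRNA. At JUND, the site 1.54 kb downstream went from RAD21, SMC3 and CTCF to those 3 with NIPBL, MYC and JUND. The JUND site 29.1 kb downstream went the other way, from RAD21, SMC3, NIPBL, CTCF and KLF5 to RAD21, SMC3 and CTCF. At DUSP1, the site 0.604 kb upstream held SMC3 and CTCF under control siRNA and CTCF and JUND under RAD21 siRNA. One 0.376 kb downstream held none under control siRNA and RAD21, MYC and JUND under RAD21 siRNA, and one 6.04 kb downstream went from SMC3, CTCF and RFX2 to none.

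H3K4me1 was the target with the most peaks at the loci, 58 under control siRNA and 57 under RAD21 siRNA. Of the 58, 52 were found again (89.7%, interval 78.8 to 96.1) against 74.3% of the list, and 93.5% of list peaks at or above the members' median score of 247. Of the 57, 13 had no control peak, or 22.8% against 17.7% of the list. Normalised tags in the 52 pairs had a median ratio of 1.29, against 1.05 over the list, and 21 were below 1. Several control peaks can meet 1 long peak, and each then counts its tags as a pair.

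All 6 starts had an H3K4me1 peak within 1 kb in both libraries, but the share of these 2 kb inside a peak was higher under RAD21 siRNA at each of the 6. It was 19.3% and 94.1% at JUN, 29.3% and 100% at FOS, and 14.0% and 70.0% at FOSL1. JUNB had 63.4% and 100%, JUND 5.40% and 41.1%, and DUSP1 30.3% and 100%. Over the whole 100 kb the difference had no common direction, with 31.3% and 39.6% at JUN, 38.0% and 31.1% at FOS, 25.5% and 29.6% at FOSL1, 34.0% and 44.7% at JUNB, 35.0% and 43.1% at JUND, and 15.7% and 13.5% at DUSP1. Genome-wide cover was 6.84% and 6.58%. Starts of other genes were not measured here, so whether the 6 differ from them was not tested.

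**Figure D4:**
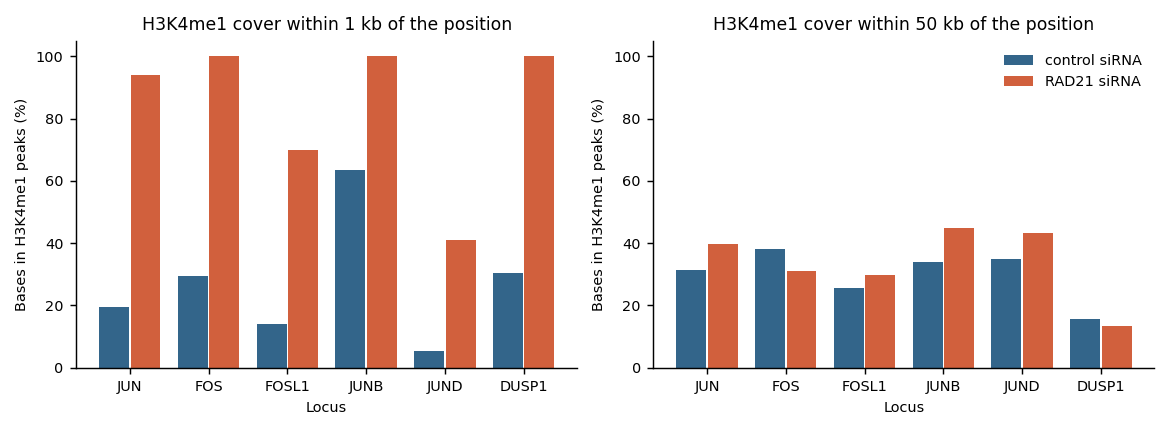
Share of bases inside H3K4me1 peaks within 1 kb (left) and within 50 kb (right) of each locus position, in percent, blue for control siRNA and orange for RAD21 siRNA. The orange bar is higher at all 6 loci on the left and at 4 of 6 on the right.

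The longest H3K4me1 peak spanned the JUNB start under RAD21 siRNA, 16.2 kb long with 1003 tags and a score of 1283 at chr19:12753419-12769584 on hg18. Under control siRNA the same stretch held separate peaks, the largest 8.59 kb long with 866 tags and a score of 1842, and 1 of 167 tags and a score of 326 at the start. At JUN the start had 197 tags in a 3045 bp peak under control siRNA and peaks of 147 and 70 tags under RAD21 siRNA. The FOS start had 86 tags in 1709 bp and 152 tags in 3780 bp, with scores of 102 and 399. The FOSL1 start had 132 tags in 3389 bp and 2 peaks of 36 and 24 tags. The JUND start had 245 tags upstream under control siRNA, and 249 and 119 tags in peaks on either side under RAD21 siRNA. The control counterpart of the 249-tag peak, with 525 tags and a score of 1012, ended 1136 bp from the position. DUSP1 had 91 tags in 1995 bp and 166 tags in 4001 bp. Strongest by score away from the starts were the control peak 37.5 kb upstream of JUND (809 tags, score 2895), with 501 tags and a score of 1771 in its counterpart, and the control peak 28.4 kb downstream of JUN (536 tags, score 2000), with 279 tags and a score of 928. FOS had its best 17.0 kb downstream (251 tags, score 865), with 288 tags and a score of 757 in the other list, and FOSL1 43.8 kb downstream (450 tags, score 1270), with 231 tags and a score of 731.

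Of the other 4 factors, KLF5 and HNF4A had more control peaks at the loci than NIPBL or JUND. KLF5, a factor of proliferating intestinal crypts, had 17 peaks and 2, while its whole list went from 7791 to 1781. Of the 17, 1 was found again (5.88%) beside 10.2% of its list and 13.8% of list peaks at or above the members' median score. HNF4A, a nuclear receptor of intestinal epithelium, had 13 and 11, with 3 of 13 found again (23.1%). The HNF4A list had 33.4%, and its peaks at or above the members' median score 50.0%. RFX2 had 6 and 4, with 3 of 6 found again (interval 11.8 to 88.2%). The RFX2 list had 13.2%, and its peaks at or above the members' median score 37.4%. REST, a repressor of neuronal genes, had 4 and 3, with 3 of 4 found again. The REST list had 69.1%, and its peaks at or above the members' median score 100%. At the starts, KLF5 was at JUNB (48 tags) and JUND (51 tags) under control siRNA and at none under RAD21 siRNA. HNF4A was at JUND under control siRNA (50 tags, score 54.0), and at JUN (38 tags, score 51.8) and JUNB (61 tags, score 228) under RAD21 siRNA. RFX2 was at the JUN start in both lists, with 44 and 8 tags. REST peaks are named here after their values were seen. The one 41.4 kb downstream of JUNB had 883 tags and 576, or 130 and 137 normalised tags, and the one about 47.6 kb downstream of JUND had 766 and 594, or 113 and 141 normalised tags. These had a score of 3100 in both lists, while the control REST peak that was not found again, 38.3 kb downstream of JUND, had 11 tags, a score of 75.6 and an FDR of 57.9%.

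**Figure D5:**
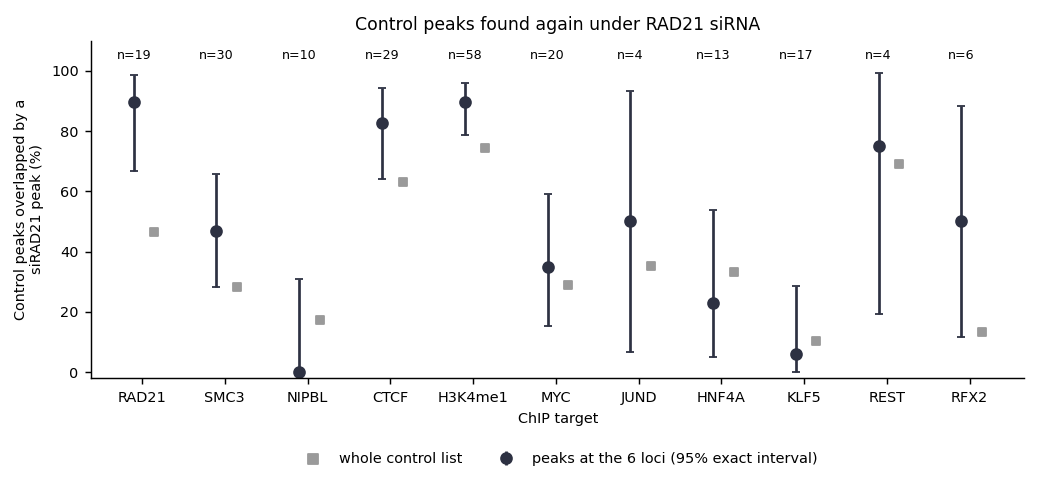
Share of control peaks that a RAD21 siRNA peak of the same target overlapped, in percent, for peaks at the 6 loci (circles, with 95% exact binomial intervals and n above) and for the whole control list (squares). The circle for RAD21 is at 89.5% and its square at 46.6%, while for NIPBL the circle is at 0 and its square at 17.4%. Of RAD21 list peaks at or above the members' median score, 86.1% were found again, which is not drawn.

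Over all 11 targets and 6 starts, 18 of 66 pairs of target and locus had a peak within 1 kb under control siRNA and 30 under RAD21 siRNA, 14 of them in both. The same count was not made at the starts of other genes. Among peaks with an FDR under 5% the numbers were 14 and 14, so no difference was left at that limit. At a score of at least 100 they were 12 and 19, and with equal numbers of the strongest peaks 9 and 29. Equal numbers cut only the longer list of a target, which was the control list for all but JUND and REST. The 9 and 29 therefore cannot show whether the difference holds at like strength. The FDR limit stood for unlike scores in the 2 libraries of a target. MYC at the JUN start had a score of 55.2 at an FDR of 3.33% under control siRNA. Under RAD21 siRNA it had a score of 64.7 at an FDR of 23.1%. With all deposited peaks, the number of targets was 6 and 9 at JUN, 1 and 2 at FOS, 1 and 4 at FOSL1, 2 and 4 at JUNB, 5 and 6 at JUND, and 3 and 5 at DUSP1. At JUND the order rests on the 1 kb line: control peaks of CTCF and RAD21 ended 1003 and 1029 bp from the position, their RAD21 siRNA counterparts 965 and 916 bp from it, and within 2500 bp the numbers were 7 and 7. The other 5 starts had more targets under RAD21 siRNA within 500, 1000 and 2500 bp when no FDR limit was set. SMC3 and KLF5 were the targets at fewer starts, 3 and 2 for SMC3 and 2 and 0 for KLF5. FOS had the barest start, with H3K4me1 alone under control siRNA and H3K4me1 with NIPBL under RAD21 siRNA.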

How the data were processed

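The submitters' processing notes name CASAVA 1.4, BWA, MACS 1.4 and the hg18 build, and peaks were called by the authors per library with MACS 1.4.0rc2 (p cutoff 1e-05, band width 300, background within 1000 and 10000 bp, 1 tag kept per position), per the file headers. CTCF and RFX2 used goat IgG as background and the rest rabbit IgG. IgG libraries were not analysed here. Each deposited peak had a tag count, a score (10 times the negative log10 of p), a fold (a linear ratio over IgG) and an FDR in percent. The deposited files held 10 columns under 9 names, and the unnamed one was read as the FDR because its values under 5 were as many as the labels' number of peaks at that FDR in 22 of 22 libraries.

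Python 3.11.15 with pandas 2.3.3, numpy 2.4.6 and scipy 1.17.1 selected the members, matched peaks that shared at least 1 bp, and scaled tag counts per 1000000 filtered tags. Distances run from the locus position to the summit, and a peak was at the start when any of it lay within 1 kb. Upstream and downstream follow the RefSeq strand, and for FOSL1 general knowledge. The overlap and window steps were tested on simulated data. Members, motifs and lists were chosen with earlier results of these data known. Named peaks were drawn mainly, by rule, from the highest-scoring peak of RAD21, SMC3, NIPBL, H3K4me1, MYC and JUND at a locus, the peaks at the starts and the 2 sites with the most targets per locus. Not every such peak is printed, and other peaks and sites were chosen after their values were seen. The hg18 gene annotation was not used here, so peaks are not placed in exons or introns.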

Additional observations from a re-analysis of the deposited data

How the results depend on the processing

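Of 205 alternative values for 17 results, 176 stayed within 1.5 times the main count or inside the main share's interval, and 29 moved. Some of the 176 could not move, so this tally does not measure how firm the results are. A control start count of 0, as for JUND and NIPBL, stays 0 in any stricter list or with a locus left out. The JUND share of 2 of 4 had an interval of 6.76 to 93.2%, which few values could leave. For the results on gene starts, every alternative was chosen after seeing the data. For those that moved, the cause was not tested, except that stricter lists and narrower windows hold fewer peaks. Equal numbers shortened the control list of all targets but JUND and REST. Counts of all members moved from 210 to 124 (25 kb) and 352 (100 kb) under control siRNA and from 196 to 345 (100 kb) under RAD21 siRNA. At a score of at least 100 they were 126 and 104, with equal numbers of the strongest peaks 135 under control siRNA, and at an FDR under 5% 128 under RAD21 siRNA. The share of RAD21 control peaks found again was 100% within 25 kb (11 of 11) and with equal numbers (13 of 13). That of SMC3 was 26.9% at an FDR under 5% and 100% with equal numbers (10 of 10). That of MYC was 0% at an FDR under 5% (0 of 20) and 14.3% at a score of at least 100. That of H3K4me1 was 78.7% at a score of at least 100 and 31.0% when summits had to lie within 250 bp. At an FDR under 5% the RAD21 siRNA lists had JUND, MYC and NIPBL peaks at 0 starts. At a score of at least 100 NIPBL was at 0 starts and MYC at 2, and under control siRNA MYC was at 1. The MYC control count was also 1 with equal numbers and within 500 bp, and 1 to 2 when each locus was left out in turn (1 without JUN or without JUND). Pairs of target and start were 9 with equal numbers and 10 within 500 bp under control siRNA, and 14 at an FDR under 5% and 19 at a score of at least 100 under RAD21 siRNA. H3K4me1 cover at the start was higher under RAD21 siRNA at all loci kept in each alternative run. Under an FDR of 5% no JUND or NIPBL control member was left, so those shares had no value.

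No paired analysis was possible because each target had 1 library per siRNA. Peaks near the score floor of 50 rest on few tags, and a library with fewer tags or a shallower IgG background calls other peaks. Locus windows were chosen around rounded positions, and overlapping lists of one siRNA share an IgG library.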
